A study of Mus musculus with 16 samples.

Results

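The genes described here encode the receptors through which TNF and Fas ligand signal, the kinases and the membrane effector of necroptosis, and caspase 8 with its regulators. They were chosen by name and are 10 of the 55414 genes in the deposited counts table: Tnfrsf1a, Tnfrsf1b, Fas, Ripk1, Ripk3, Mlkl, Casp8, Cflar, Birc2 and Birc3. RNA was sequenced from Paneth cells, the secretory cells at the base of the crypts of the small intestine, purified by sorting from C57BL/6J mice. The groups were named by their injections: PBS+PBS mice received PBS at both injections, PBS+TNF mice received TNF, DEX+PBS mice received DEX, and DEX+TNF mice received DEX and then TNF. The first injection was PBS, a buffered salt solution, or DEX, and TNF or PBS followed 1 h later. Cells were collected 3 h after the second injection, in all groups alike. DEX was read as dexamethasone, a synthetic glucocorticoid, although the labels give only the abbreviation. Neither age nor sex of the single mice is given in the sources used here. Each group had 4 libraries, described as biological replicates, so there were 16 in all.

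Binding of TNF to TNF receptor 1, the product of Tnfrsf1a, assembles a signalling complex in which the ubiquitin ligases encoded by Birc2 and Birc3 modify the kinase RIPK1. In this state the complex activates NF-kB and favours survival. When these modifications are lost, RIPK1 can recruit FADD and caspase 8 and start apoptosis. If caspase 8 is blocked, RIPK1 and RIPK3 form the necrosome and phosphorylate MLKL, which then breaks the plasma membrane. In the intestinal epithelium caspase 8 is known to restrain this necroptotic route, and Paneth cells are among the cells that are lost when it is deleted. These regulators act mostly on proteins, so the mRNA levels below are no measure of cell death.

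Library totals ran from 7286307 to 15832111 counts, and the scaling factors from 0.418 to 1.50. The summed level of 7 Paneth cell markers, among them Lyz1 and Mmp7, was 409865 to 609925 CPM (counts scaled to the library total) in the 16 libraries. The 7 immune cell markers summed to 25.7 to 106 CPM. Among them Lyz2 was at 23.9 to 106 CPM, while Ptprc was at most at 31.5, Cd68 at 0.896, Csf1r at 0.746 and Cd79a at 0.214. The T cell genes Cd3e and Cd8a were at 0 in every library. The 5 stromal and endothelial markers summed to at most 1.42 CPM. Markers of other crypt cells were present and varied, with goblet cell markers at 1272 to 9317 CPM and stem cell markers at 208 to 1825 CPM. DEX+TNF libraries 3 and 4 stood apart from DEX+TNF 1 and 2. Nfkbia, which NF-kB induces as part of its own feedback, was at 277 to 337 normalized CPM in PBS+TNF and at 330.0 and 382 in DEX+TNF 1 and 2. It was at only 28.3 and 41.0 in DEX+TNF 3 and 4, near the 19.5 to 27.3 of DEX+PBS. Sgk1, a glucocorticoid-induced kinase gene, was at most at 7.94 in the libraries without DEX and at 17.6 to 48.5 in DEX+PBS. It was at 24.8 and 32.4 in DEX+TNF 1 and 2, and at 33.6 and 115 in DEX+TNF 3 and 4. The same 2 libraries had summed levels of the tuft cell markers Dclk1, Trpm5 and Avil of 109 and 815 CPM, against 1.22 and 0 in DEX+TNF 1 and 2 and 2.05 to 174 in the other groups. In DEX+TNF 4, the leukocyte gene Ptprc was at 31.5 CPM, against at most 5.64 in any other library. DEX+TNF 4 also had the highest summed enterocyte (400.3 CPM, at most 116 elsewhere), stem cell (1825, at most 1192) and cycling cell (175, at most 139) markers. The part of these markers in the results was not tested. In this NF-kB target, DEX+TNF 3 and 4 thus differed from DEX+TNF 1 and 2, which carry the same label. Whether the second injection, the label or the response to DEX differed for DEX+TNF 3 and 4 was not tested. The fitted values and edgeR counts of the 10 genes in comparisons with DEX+TNF are given below with and without them, while DESeq2 was run on all libraries only.

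The 10 genes lie on 8 chromosomes of the GRCm39 assembly, and all are annotated as protein-coding. The receptor genes are Tnfrsf1a (ENSMUSG00000030341, chr6:125325566-125339632, plus strand), Tnfrsf1b (ENSMUSG00000028599, chr4:144938938-144973477, minus strand) and Fas (ENSMUSG00000024778, chr19:34268001-34305173, plus strand). The necroptosis genes are Ripk1 (ENSMUSG00000021408, chr13:34186141-34221130, plus strand), Ripk3 (ENSMUSG00000022221, chr14:56022452-56026324, minus strand) and Mlkl (ENSMUSG00000012519, chr8:112036296-112065168, minus strand). Cflar (ENSMUSG00000026031, chr1:58750321-58798047) and Casp8 (ENSMUSG00000026029, chr1:58834375-58886665) follow each other on the plus strand of chromosome 1, 36327 bases apart. Birc2 (ENSMUSG00000057367, chr9:7818227-7837120) and Birc3 (ENSMUSG00000032000, chr9:7845790-7873229) are neighbouring paralogs on the minus strand of chromosome 9, 8669 bases apart. Exons of Tnfrsf1a, Tnfrsf1b, Ripk1 and Mlkl overlap those of other genes by 19 to 752 bases. How the counting treated strand and reads matching several genes is not stated, so counts of these 4 genes and of the Birc pair carry that uncertainty.

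The 300 bases before the start of each gene's canonical transcript were read from the GRCm39 sequence, since 7 of the genes moved together after TNF. Other transcripts of some genes start further upstream, so 3 windows (Tnfrsf1a, Mlkl and Cflar) lie wholly inside the annotated gene and 8 overlap an exon of their own gene, all but those of Ripk3 and Birc3. The window of Birc3, the gene with the largest rise, is shown whole because it overlaps no annotated exon (chr9:7873230-7873529, minus strand, 39.0% GC):
Birc3: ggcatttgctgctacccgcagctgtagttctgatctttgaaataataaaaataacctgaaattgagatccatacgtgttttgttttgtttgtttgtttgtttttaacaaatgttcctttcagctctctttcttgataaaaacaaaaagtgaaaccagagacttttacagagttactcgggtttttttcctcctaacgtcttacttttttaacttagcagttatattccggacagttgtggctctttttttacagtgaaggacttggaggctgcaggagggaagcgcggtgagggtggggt

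The window of its neighbour Birc2 was 67.0% GC. The core of interferon response elements (GAAA, then 2 bases of any kind, then GAAA) was searched on both strands and was found in 2 of the 10 windows, those of Tnfrsf1b and Mlkl. It was found in 3.64% of the windows of 11793 tested genes. The stretches that hold it are shown, 5′ to 3′ on the gene's strand, with the motif, which reads on the opposite strand, in capitals. In Tnfrsf1b (chr4:144973441-144973470) the stretch covers bases 30 to 1 before the start, and in Mlkl (chr8:112065105-112065134) it covers bases 266 to 237 and holds 3 overlapping matches:
Tnfrsf1b: cctagctcctggcctgagggTTTCGCTTTC
Mlkl: tcacTTTCGTTTTCTTTTTCTTTTTCtttc

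The motif TTCNNNGAA, bound by STAT factors, was in the windows of Tnfrsf1a, Tnfrsf1b, Fas and Cflar (4 of 10) and in 7.79% of all windows. The further motifs had no match in the 10 windows: the kappaB consensus of NF-kB (in 5.11% of all windows), the glucocorticoid receptor motif (GNACA and TGTNC, 3 bases apart, in 0.263%) and TATAAA (9.13%). A match describes these letters only, and motifs outside the windows were not searched.

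In PBS+PBS, the resting levels of the 10 genes spanned a wide range. On a scale of normalized CPM per kb of the canonical transcript, Tnfrsf1a was highest, with a level of 31.6 ± 9.84 (SD, n = 4). Casp8 followed with a level of 7.59 ± 1.02 per kb, below every Tnfrsf1a value. Birc2 came next with a level of 4.44 ± 1.03 per kb, and its libraries did not overlap those of Casp8. Below it came Fas (3.85), Cflar (3.30), Ripk1 (2.72), Ripk3 (2.30), Birc3 (1.63), Tnfrsf1b (0.826) and Mlkl (0.313), as mean levels per kb. Each of these 7 overlapped its neighbour in the order, so their exact ranks are not settled by 4 libraries. Tnfrsf1a and Casp8 were above Mlkl per length in every library.

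After TNF alone the order per kb was different. Tnfrsf1a (42.6 ± 11.9), Birc3 (34.7 ± 5.80) and Fas (27.6 ± 16.7) had the highest mean levels per kb, and the libraries of neighbours in that order overlapped. Casp8 was next with a level of 16.6 ± 1.73 per kb, and it did not overlap Tnfrsf1b (8.71 ± 3.43) below it. Ripk1 (8.20), Ripk3 (6.43), Birc2 (6.18) and Cflar (4.77) followed, each overlapping its neighbour, and Mlkl (1.77 ± 0.308) remained lowest, below every Cflar value.

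**Figure D1:**
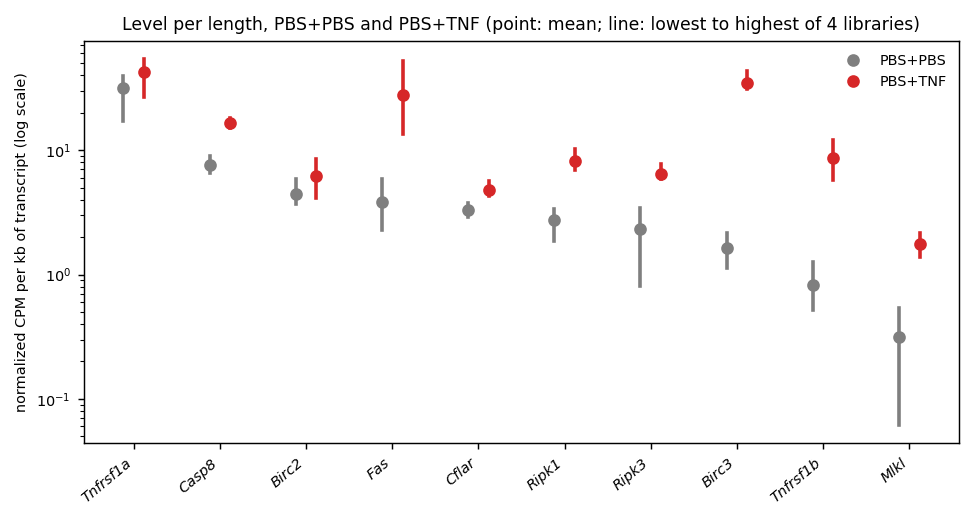
Levels of the 10 genes in PBS+PBS (grey) and PBS+TNF (red), in normalized CPM per kb of the canonical transcript on a log axis, with points at the mean and lines from the lowest to the highest of 4 libraries. Tnfrsf1a was highest and Mlkl lowest in both groups, while Birc3 moved from a mean of 1.63 to 34.7.

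The response of these genes to TNF without DEX was given by PBS+TNF versus PBS+PBS. Of the 10 genes, 7 were called at an adjusted p under 0.05 and all 7 rose: Birc3, Tnfrsf1b, Fas, Mlkl, Ripk1, Ripk3 and Casp8. Of all 11809 genes tested, 12.5% were called in this comparison, and 7.15% were called as higher. The median log2 fold change was 1.54 over the 10 genes and -0.03 over all genes tested. Tnfrsf1a, Cflar and Birc2 did not pass the test. In bulk RNA, more RNA per cell and more cells of an expressing type cannot be told apart. The summed immune markers, mostly Lyz2, were at 41.0 to 42.1 CPM in PBS+TNF and 41.3 to 106 in PBS+PBS, but their members did not move alike. Ptprc was at 0, 0, 4.24 and 5.64 CPM in PBS+TNF and at most at 1.12 in PBS+PBS, and the tuft cell markers summed to 72.1 and 174 in PBS+TNF 3 and 4, against at most 50.8 in PBS+PBS. Goblet cell markers were at 1272 CPM in PBS+TNF 1 and at 5075 to 9317 in the other 3. The part of these cells in the rises was not tested.

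Among the receptors, the inducible TNF receptor 2 and Fas rose, while the main TNF receptor did not pass the test. Tnfrsf1b encodes TNF receptor 2, which has no death domain. It was at 2.57, 4.40, 6.25 and 3.01 normalized CPM in PBS+PBS and at 28.1, 59.2, 28.3 and 55.5 in PBS+TNF. Every TNF library was above every PBS library. Tnfrsf1b thus rose 10.4-fold, by 3.38 (edgeR SE 0.60, adjusted p = 0.00229) on the log2 scale. Fas encodes the receptor of Fas ligand, whose death domain binds FADD. It was at 5.91, 4.92, 3.42 and 8.67 in PBS+PBS and at 76.9, 29.9, 37.3 and 20.2 in PBS+TNF. The groups did not overlap, but the TNF libraries differed among themselves by more than those of any other called gene here relative to their mean. The scaling factors of PBS+TNF 1, 2, 3 and 4 were 0.418, 1.26, 1.08 and 1.44, lowest where Fas was highest and highest where Fas was lowest. The part of the scaling in this spread was not tested. The log2 fold change of Fas was 2.85 (edgeR SE 0.58, adjusted p = 0.00507), or 7.21-fold.

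Tnfrsf1a was at 73.7, 85.2, 78.8 and 37.4 normalized CPM in PBS+PBS and at 58.0, 117, 89.4 and 106 in PBS+TNF. The groups overlapped, and the log2 fold change was 0.43 (95% interval -0.24 to 1.10, edgeR adjusted p = 0.431). The receptors' balance differed between the 2 groups. The ratio of Tnfrsf1b to Tnfrsf1a counts, which needs no scaling between libraries, was 0.0349 to 0.0805 in PBS+PBS and 0.317 to 0.523 in PBS+TNF.

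The genes of the necroptosis axis rose together. Ripk1 encodes the kinase that links the receptors to survival, apoptosis and necroptosis. It was at 21.6, 16.8, 22.6 and 12.4 normalized CPM in PBS+PBS and at 57.0, 68.7, 46.3 and 48.9 in PBS+TNF, with no overlap. Ripk1 rose 3.00-fold, a log2 value of 1.59 (edgeR SE 0.28, adjusted p = 0.00203). Ripk3 encodes the kinase that phosphorylates MLKL. Its levels were 1.54, 4.47, 4.91 and 6.53 in PBS+PBS and 11.2, 11.9, 11.0 and 14.7 in PBS+TNF, again without overlap. Ripk3 rose 2.81-fold, a log2 value of 1.49 (edgeR SE 0.33, adjusted p = 0.00735).

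Mlkl, the membrane effector, was the gene with the lowest counts. It had 3 to 35 counts per library in PBS+PBS and 30 to 149 in PBS+TNF. These were levels of 0.257, 2.23, 1.60 and 1.13 normalized CPM in PBS+PBS and 5.78, 7.42, 8.93 and 7.38 in PBS+TNF, and the groups did not overlap. The log2 fold change was 2.47 (edgeR SE 0.59, adjusted p = 0.0113), or 5.53-fold. The low-count filter asked for 0.757 CPM in at least 4 libraries. Mlkl reached that level in 4 PBS+TNF libraries, 3 of DEX+TNF and 2 each of PBS+PBS and DEX+PBS, so it passed without the PBS+TNF libraries too. The other 9 genes reached it in all 16 libraries.

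Caspase 8 and Birc3 rose, and the caspase inhibitor gene Cflar and Birc2 did not pass the test. Casp8 encodes the initiator protease of receptor-driven apoptosis, which also cleaves RIPK1 and RIPK3. It was at 17.9, 20.7, 20.0 and 24.6 normalized CPM in PBS+PBS and at 49.3, 41.4, 41.2 and 49.6 in PBS+TNF, with little spread in either group and no overlap. Casp8 rose 2.18-fold, a log2 value of 1.12 (edgeR SE 0.21, adjusted p = 0.00322). Cflar encodes cFLIP, the catalytically inactive relative of caspase 8 that limits its activation. It was at 24.9, 21.3, 26.3 and 20.2 in PBS+PBS and at 32.0, 39.2, 32.8 and 29.8 in PBS+TNF. Every TNF library was higher, but the log2 fold change of 0.53 (95% interval -0.14 to 1.20) was not called (edgeR adjusted p = 0.317). The ratio of Cflar to Casp8 counts was 0.821 to 1.39 in PBS+PBS and 0.601 to 0.949 in PBS+TNF, and these ranges overlapped.

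Birc3 encodes cIAP2, a ubiquitin ligase of the TNF receptor complex. It showed the highest log2 fold change of the 10 genes, from 6.51, 7.98, 12.5 and 10.7 normalized CPM in PBS+PBS to 178, 250.0, 182 and 193 in PBS+TNF. Every TNF library was far above every PBS library, and the log2 fold change was 4.41 (edgeR SE 0.75, adjusted p = 0.00172), or 21.3-fold. Birc2 encodes cIAP1, its close relative. It was at 15.0, 12.2, 12.4 and 19.6 in PBS+PBS and at 28.3, 17.7, 22.6 and 13.7 in PBS+TNF, and the groups overlapped. Its log2 fold change was 0.47 (95% interval -0.15 to 1.10, edgeR adjusted p = 0.347). Counts of Birc3 were 0.434 to 1.00 times those of Birc2 within PBS+PBS libraries and 6.27 to 14.1 times within PBS+TNF libraries. The ratio of the 2 neighbouring genes was therefore higher in every PBS+TNF library than in any PBS+PBS library.

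**Figure D2:**
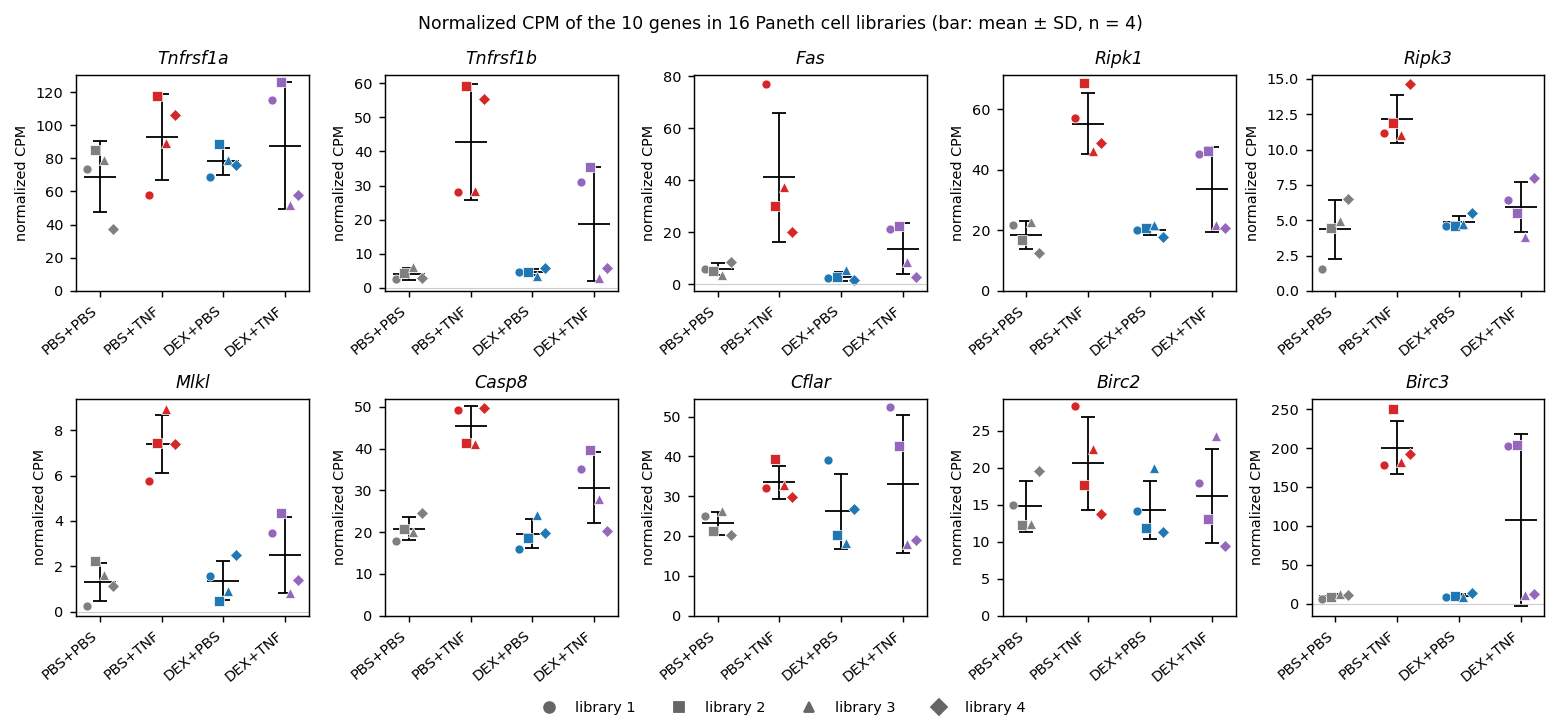
Normalized CPM of each gene in the 16 libraries, with 1 panel per gene, groups on the x axis and a bar at the mean ± SD (n = 4). Birc3, Tnfrsf1b, Fas, Mlkl, Ripk1, Ripk3, Casp8 and Cflar, which was not called, were higher in every PBS+TNF library than in any PBS+PBS library. Such separation was not counted over all genes. DEX+TNF libraries 3 and 4 lay far below libraries 1 and 2 for Birc3 (11.6 and 12.7 against 203 and 204).

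DEX without TNF left no call among the 10 genes. In DEX+PBS versus PBS+PBS edgeR called 0 of them, beside 0.00847% of all genes tested. At an unadjusted p under 0.05 the counts were 0 of the 10 genes and 224 of all genes (1.90%), and DESeq2 called 0 of the 10. Fas, with levels of 2.18, 2.59, 5.27 and 1.43 normalized CPM in DEX+PBS, had the lowest log2 fold change, -1.01 (95% interval -2.26 to 0.24). The other 9 lay between -0.09 for Casp8 and 0.18 for Tnfrsf1a, and the adjusted p was 1 for all 10. In the DEX+PBS libraries, Tnfrsf1a was at 68.7 to 88.6, Tnfrsf1b at 3.44 to 5.71, Ripk1 at 17.8 to 21.9, Ripk3 at 4.58 to 5.51 and Mlkl at 0.482 to 2.50 normalized CPM. Casp8 was at 15.9 to 24.2, Cflar at 18.3 to 39.2, Birc2 at 11.3 to 19.9 and Birc3 at 8.50 to 13.3. Each of these ranges overlapped that of PBS+PBS. The intervals use a spread estimated over all 16 libraries. For Birc3 the interval was -1.29 to 1.52 on the log2 scale, and -0.36 to 0.60 when DEX+TNF 3 and 4 were left out of the fit. In that fit Fas was at -1.01 (95% interval -1.96 to -0.061), the only one of the 10 genes at an unadjusted p under 0.05, and 0 were called. The share of all genes at such a p in that fit is not given here.

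Whether DEX given before TNF altered the levels reached was addressed by DEX+TNF versus PBS+TNF, which uses the same PBS+TNF libraries as the comparison above. Of the 10 genes edgeR called 0, beside 0.339% of all genes tested, and DESeq2 also called 0 of them. All 10 log2 fold changes were below 0, with a median of -0.81, against 0.03 over all genes. At an unadjusted p under 0.05 there were 6 of the 10 genes and 11.9% of all genes. Without DEX+TNF 3 and 4 this became 1 of the 10 genes, Ripk3, and 9.87% of all genes, and 7 of the 10 log2 fold changes were below 0, with a median of -0.32. The highest of the 10 adjusted p was 0.985 and the lowest was 0.185, for Ripk3.

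The genes fell into sets by how their 4 DEX+TNF libraries behaved. Birc3 was at 203, 204, 11.6 and 12.7 normalized CPM, so libraries 1 and 2 lay within the PBS+TNF range and libraries 3 and 4 within the DEX+PBS range (8.50 to 13.3). Library 4 was also just above the highest PBS+PBS value, 12.5. Its log2 fold change against PBS+TNF was -0.90 (edgeR SE 0.65, adjusted p = 0.633), and 0.02 (SE 0.27, adjusted p = 0.980) without libraries 3 and 4. Tnfrsf1b showed the same split, with levels of 31.1, 35.3, 3.06 and 5.73. Its log2 fold change was -1.19 (edgeR SE 0.55, adjusted p = 0.406) with all libraries and -0.37 (SE 0.36, adjusted p = 0.675) without libraries 3 and 4.

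Ripk1 was at 45.1, 46.2, 21.8 and 20.8 normalized CPM in DEX+TNF. Every value was below the lowest PBS+TNF value, though library 2, at 46.2, lay just under that value of 46.3. How often groups separate in this way over all genes was not counted. The log2 fold change of Ripk1 was -0.72 (edgeR SE 0.27, adjusted p = 0.284), or -0.27 (SE 0.25, adjusted p = 0.655) without libraries 3 and 4. Casp8 was at 35.0, 39.6, 27.9 and 20.2, also below every PBS+TNF value. Its log2 fold change of -0.57 (edgeR SE 0.21, adjusted p = 0.283) became -0.28 (SE 0.21, adjusted p = 0.617) without the 2 libraries. Fas was at 21.2, 22.4, 8.57 and 2.54 and overlapped PBS+TNF, where the lowest library was at 20.2. Its log2 fold change was -1.58 (edgeR SE 0.55, adjusted p = 0.236) and without the 2 libraries -0.89 (SE 0.50, adjusted p = 0.554).

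Ripk3 differed from this pattern, since all 4 DEX+TNF libraries were low. It was at 6.45, 5.50, 3.78 and 7.98 normalized CPM, against 11.0 to 14.7 in PBS+TNF and 4.58 to 5.51 in DEX+PBS. The log2 fold change against PBS+TNF was -1.03 (edgeR SE 0.32, adjusted p = 0.185). Without libraries 3 and 4 it was still -1.03 (SE 0.38), with an adjusted p of 0.436, and neither fit called it. Nfkbia in DEX+TNF 1 and 2, at 330.0 and 382, was not below its PBS+TNF range of 277 to 337, while Ripk3 in those libraries was at 6.45 and 5.50. Mlkl was at 3.47, 4.37, 0.817 and 1.40, below every PBS+TNF value. Its log2 fold change was -1.56 (edgeR SE 0.56, adjusted p = 0.260), and -0.92 (SE 0.58, adjusted p = 0.580) without the 2 libraries.

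Tnfrsf1a was at 115, 126, 51.5 and 57.6 normalized CPM in DEX+TNF, Cflar at 52.5, 42.6, 17.9 and 19.1, and Birc2 at 17.9, 13.0, 24.3 and 9.47. In libraries 1 and 2, Cflar was above every PBS+TNF value, and Tnfrsf1a was at or near the top of the PBS+TNF range. In libraries 3 and 4, both were below every PBS+TNF value. The log2 fold changes against PBS+TNF were -0.08 (SE 0.32) for Tnfrsf1a, -0.02 (SE 0.31) for Cflar and -0.34 (SE 0.30) for Birc2. Without libraries 3 and 4 those of Tnfrsf1a and Cflar turned to 0.38 (SE 0.30) and 0.51 (SE 0.26), and that of Birc2 was -0.40 (SE 0.32). None of these 3 was called in either fit, and of all genes tested 0% were called without the 2 libraries.

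**Figure D3:**
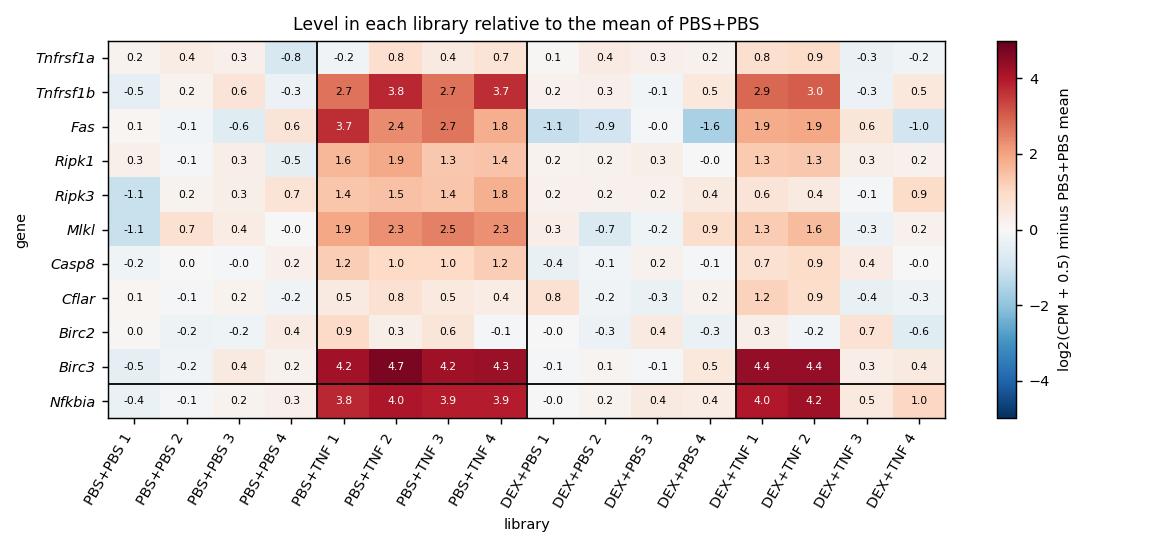
Level of each gene and of Nfkbia in each of the 16 libraries, as log2(normalized CPM + 0.5) minus the mean of PBS+PBS, with genes in rows, libraries in columns and red for higher. In DEX+TNF 3 and 4, Birc3 was only 0.3 and 0.4 above the PBS+PBS mean, against 4.4 in libraries 1 and 2, while Ripk3 was between -0.1 and 0.9 in all 4.

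The TNF effect after DEX was given by DEX+TNF versus DEX+PBS. With all libraries edgeR called 0 of the 10 genes, beside 0.339% of all genes tested. At an unadjusted p under 0.05 there were 5 of the 10 genes and 10.4% of all genes. Birc3 had the highest log2 fold change, 3.40 (SE 0.72), and an edgeR adjusted p of 0.0510. Fas followed with 2.28 (edgeR SE 0.59, adjusted p = 0.123) and Tnfrsf1b with 2.01 (edgeR SE 0.58, adjusted p = 0.168). The remaining 7 lay between 0.16 for Tnfrsf1a and 0.85 for Mlkl. DESeq2 on the same libraries called 3 of the 10, namely Birc3 (adjusted p = 5.92e-05), Fas (0.00840) and Tnfrsf1b (0.0241). The edgeR share of all genes is not the background of these DESeq2 calls. Calls among all genes in this comparison ranged from 0 to 1286 over the main fit and its alternatives.

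This comparison changed with DEX+TNF libraries 3 and 4. Without library 3 edgeR called 3 of the 10 genes, without library 4 it called 4, and without both it called 6, all higher. The share of all genes called is given here only for the fit without both, so the counts of 3 and 4 lack it. With both left out, 10.5% of 12223 genes tested were called, 7.20% as higher, and 7 of the 10 genes and 25.0% of all genes had an unadjusted p under 0.05. Birc3 then had a log2 fold change of 4.32 (edgeR SE 0.27, adjusted p = 4.05e-08), Fas 2.97 (SE 0.50, adjusted p = 0.00104) and Tnfrsf1b 2.83 (SE 0.35, adjusted p = 5.64e-05). Ripk1 rose by 1.18 (edgeR SE 0.24, adjusted p = 0.00362), Casp8 by 0.93 (SE 0.21, adjusted p = 0.00791) and Cflar by 0.87 (SE 0.26, adjusted p = 0.0444) on the log2 scale. Mlkl was at 1.49 (edgeR SE 0.57, adjusted p = 0.112), Tnfrsf1a at 0.63 (SE 0.30, adjusted p = 0.208), Ripk3 at 0.30 (SE 0.37, adjusted p = 0.658) and Birc2 at 0.12 (SE 0.31, adjusted p = 0.847). The libraries left out were known to stand apart before this fit was made, so it describes DEX+TNF 1 and 2 and not the whole group.

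The interaction asked whether the TNF effect after DEX differed from the TNF effect after PBS. No gene at all was called by edgeR (0% of 11809), with 2 of the 10 genes and 5.44% of all genes at an unadjusted p under 0.05. DESeq2 called 9 genes and none of the 10. All 10 estimates were below 0, with a median of -0.71. The lowest p was that of Ripk3, with a difference in log2 fold change of -1.20 (edgeR SE 0.46, adjusted p = 0.830). It was -0.85 (SE 0.38) for Ripk1, -1.61 (SE 0.82) for Mlkl and -1.01 (SE 0.93) for Birc3. Without DEX+TNF 3 and 4, 7 of the 10 estimates were below 0 (median -0.27), and Ripk3 alone of the 10 had an unadjusted p under 0.05, beside 5.51% of all genes. In that fit 0% of 12223 genes were called, and the value for Ripk3 was again -1.20 (edgeR SE 0.49, adjusted p = 0.857), while Birc3 came to -0.10 (SE 0.35), Ripk1 to -0.40 (SE 0.32) and Mlkl to -0.97 (SE 0.77). For all 10 genes, then, a difference between the TNF effects was not shown.

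**Figure D4:**
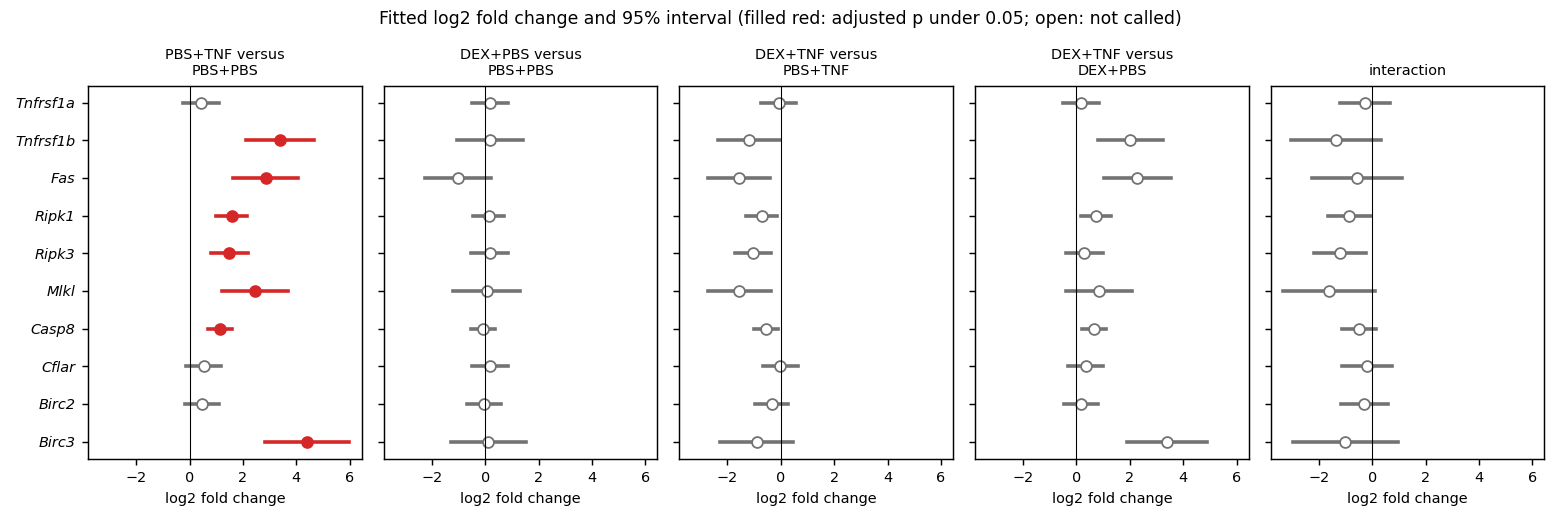
Fitted log2 fold change (point) and its 95% interval (line) for each gene in the 4 comparisons and the interaction, over all 16 libraries; filled red points were called. Calls appear in PBS+TNF versus PBS+PBS, for 7 of 10 genes, and in none of the other panels.

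A list of 46 other genes of the pathway was followed in the same fits, and 40 passed the low-count filter. The 6 that did not were Fasl, Lta, Ltb, Tnfrsf22, Tnfrsf25 and Traf1. Fasl, the ligand of Fas, had no counts in any library. In PBS+TNF versus PBS+PBS, 17 of the 40 were called, 16 higher and 1 lower, beside 12.5% of all genes. The median log2 fold change was 0.57. By role, 1 of 3 tested ligands, 3 of 5 receptors, 5 of 12 adaptors and ubiquitin enzymes, 3 of 9 kinases (2 higher) and 5 of 11 apoptosis or necroptosis partners were called.

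The 6 genes with the largest log2 fold changes were all higher. Tnf itself was at 0 to 0.428 normalized CPM in PBS+PBS and at 8.48 to 21.3 in PBS+TNF, a log2 fold change of 6.20 (edgeR SE 1.25, adjusted p = 0.00481). Tnfaip3, which encodes the ubiquitin-editing inhibitor A20, rose by 4.05 (edgeR SE 0.87, adjusted p = 0.00679), and Tnip1, its binding partner, by 3.25 (edgeR SE 0.51, adjusted p = 0.00116) on the log2 scale. Bid, the substrate through which caspase 8 reaches mitochondria, rose by 3.19 (edgeR SE 0.58, adjusted p = 0.00261) on the log2 scale, from 2.32 ± 0.432 to 21.0 ± 2.55 normalized CPM (SD, n = 4). Tnfrsf12a, the receptor of the TNF relative TWEAK, rose by 2.60 (edgeR SE 0.47, adjusted p = 0.00253) and the kinase gene Ikbke by 2.49 (edgeR SE 0.48, adjusted p = 0.00378). The 1 lower gene was Ikbkg, which encodes the regulatory subunit of the IkB kinase and fell by 0.69 (edgeR SE 0.19, adjusted p = 0.0259). It was named after its value was seen. All 1965 exon bases of Tnfrsf12a overlap exons of Hcfc1r1 on the opposite strand, as do 3377 of 9796 bases of Bid with other genes and 2603 of 10303 of Tnip1 with Gpx3. Exons of Tnfaip3, Ikbke and Ikbkg overlap others by 110 to 730 bases, so these counts carry the same uncertainty of strand.

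None of the 40 pathway genes was called in DEX+PBS versus PBS+PBS, in DEX+TNF versus PBS+TNF or in the interaction. In that order, 1, 6 and 4 of them had an unadjusted p under 0.05, beside 1.90%, 11.9% and 5.44% of all genes. DESeq2 called 3 of them, not named here, in DEX+TNF versus PBS+TNF and 0 in the other 2. The DESeq2 share of all genes is not given here. The lowest edgeR adjusted p of the 40 in DEX+TNF versus PBS+TNF was 0.0795, for Tnfrsf21 (log2 fold change -1.15). That was below the lowest of the 10 genes, 0.185 for Ripk3. Tnfrsf21 was at 11.1 to 22.5 normalized CPM in DEX+TNF and 24.9 to 46.3 in PBS+TNF. Among all genes, calls in DEX+TNF versus PBS+TNF ranged from 0 to 274 over the main fit and its alternatives. Without DEX+TNF 3 and 4 edgeR again called 0 of the pathway genes in all 3, with 2, 6 and 4 at an unadjusted p under 0.05. Of all genes, 9.87% in DEX+TNF versus PBS+TNF and 5.51% in the interaction had such a p in that fit. The share for DEX+PBS versus PBS+PBS in that fit is not given here. In DEX+TNF versus DEX+PBS, 3 were called (0.339% of all genes): Tnfaip3 at 4.47 (SE 0.90), Bid at 2.90 (SE 0.59) and Tnip1 at 2.67 (SE 0.50) on the log2 scale, each with an edgeR adjusted p of 0.0456. These calls were lost when any single library other than DEX+TNF 3 or 4 was left out. Without DEX+TNF 3 the count was 8, without DEX+TNF 4 it was 7, and without both 11, where 10.5% of all genes were called. Bid was at 24.3, 22.4, 2.86 and 3.74 normalized CPM in the DEX+TNF libraries, the same split as for Birc3.

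**Figure D5:**
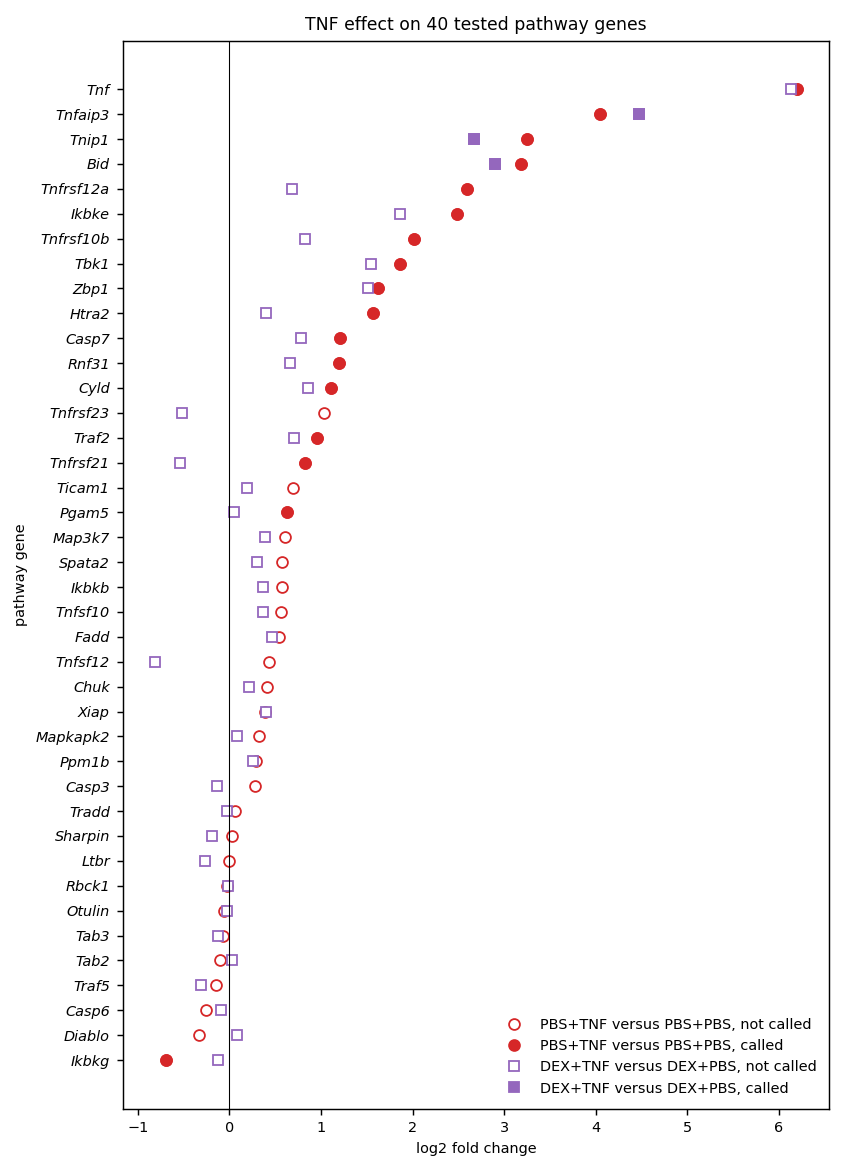
Log2 fold changes of the 40 tested pathway genes in PBS+TNF versus PBS+PBS (red circles) and in DEX+TNF versus DEX+PBS (purple squares), over all 16 libraries, filled where called. Red calls number 17, with Tnf highest at 6.20 and Ikbkg lowest at -0.69, and purple calls number 3.

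The genes whose profiles over the 16 libraries were most like those of the 7 called genes were found by the Pearson correlation of log2 CPM, among 7816 or 7817 genes. These correlations are descriptions, since the libraries share groups, injections and scaling, and they carry no p. They include DEX+TNF 3 and 4. Birc3 was most like Nfkbia (r = 0.994), the poly-ADP-ribose polymerase gene Parp14 (0.985) and the transcription factor gene Irf1 (0.985). Tnfrsf1b was most like Shb (0.988), Ralgds (0.981) and Sbno2 (0.979), and Fas was most like Bcl10 (0.971), Plscr1 (0.970) and Chic2 (0.970). Ripk1 was most like Elovl6 (0.985), Zfp217 (0.977) and Pals1 (0.976), and Casp8 was most like Plscr1 (0.964), Mpzl1 (0.962) and Cldn7 (0.962). Ripk3 and Mlkl had looser neighbours. Ripk3 was most like Anxa2 (0.917), Agpat4 (0.915) and the apoptosis effector gene Bak1 (0.898), and Mlkl was most like Taf2 (0.929), Parp10 (0.920) and Zc3h12a (0.914).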

How the data were processed

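Sorted Paneth cells of 16 mouse small intestine samples were sequenced as stranded mRNA libraries. The authors deposited a table of raw read counts without normalization, with Ensembl genes in rows and libraries in columns. Per the labels and the methods of the study, reads were checked with FastQC 0.12 and aligned with STAR to GRCm39 (mm39; version 2.7.10a in the submitters' processing notes) with the GENCODE M30 annotation. The program that counted reads, its use of strand and its handling of multi-mapped reads are not given in the sources used here. Coordinates and names came from GENCODE M39 on the same assembly.

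Each sample's title gave its group and replicate number. Counts were tested with the quasi-likelihood test of edgeR 4.0.16 (robust, TMM factors, filterByExpr, R 4.3.3) in 1 fit over all 16 libraries with a mean per group. P-values were two-sided and adjusted by the Benjamini-Hochberg method over the 11809 genes tested, within each of 4 pairwise comparisons and the interaction. A gene was called when this value was under 0.05. Standard errors were taken as the log2 fold change over the square root of F. Normalized CPM use TMM factors, and marker levels are plain CPM. Scripts were tested on simulated counts. DESeq2 1.42.0, other factors and filters, the replicate block and leaving out libraries were alternatives (26 in all). Levels between genes were compared per kb of the canonical transcript.

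The genes, the pathway and marker lists and the tests were chosen with earlier results of these data known. The text names all 10 genes and, for each called gene, the 3 genes most like it with a mean of at least 5 CPM. Of the pathway genes it names those called by edgeR over all libraries (the 6 largest log2 fold changes where over 12 were called). Ikbkg and Tnfrsf21 were named after their values were seen. Nfkbia and Sgk1 were named as checks of the responses. Tsc22d3, another check, was at 4.82 to 7.13 normalized CPM in PBS+TNF, 10.1 to 16.8 in PBS+PBS and 10.7 to 49.4 in DEX+TNF. In DEX+TNF versus PBS+TNF its log2 fold change was 2.00 (adjusted p = 0.0344), and 0.87 (adjusted p = 0.313) without DEX+TNF 3 and 4.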

Additional observations from a re-analysis of the deposited data

Results flagged for a closer look

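The 10 genes in 4 groups gave 40 sets of 4 libraries, and in 1 of them a single library lay apart from the others. Ripk3 in DEX+PBS 4 was at 5.51 normalized CPM, against 4.58 to 4.70 in the other 3 libraries, and its gap exceeded Dixon's 95% critical value. Chance flags about 1 in 20 such sets. The gap is small beside the 11.0 to 14.7 of PBS+TNF.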

How the results depend on the processing

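The depth limits Mlkl most, with 3 to 149 counts per library. In PBS+TNF versus PBS+PBS, the 7 calls held under the 26 alternatives, except Mlkl at an adjusted p under 0.01, and under the filter of 5 CPM, which removed it. Of the 10 genes, the number called stayed 0 in the interaction, in DEX+TNF versus PBS+TNF and in DEX+PBS versus PBS+PBS. In DEX+TNF versus DEX+PBS it was 3 by DESeq2, 0 to 4 with 1 library left out and 6 without DEX+TNF 3 and 4. Pathway calls in PBS+TNF versus PBS+PBS went from 17 to 10 at an adjusted p under 0.01 and to 11 to 17 with 1 library left out (11 without PBS+PBS 2). In DEX+TNF versus PBS+TNF they went from 0 to 3 by DESeq2 and to 0 to 2 with 1 library left out (2 without DEX+TNF 2). In DEX+TNF versus DEX+PBS they went from 3 to 7 by DESeq2, 11 without DEX+TNF 3 and 4, 0 to 8 with 1 library left out, and 0 without the filter, in the 2 groups alone, at an adjusted p under 0.01 and under the replicate block. Deviations of libraries of the same number had r from -0.37 to 0.50 in 24 pairs (median 0.11, against -0.06 in 72 pairs of other numbers). Of the 24, 12 were above 0.1, among them all 6 of number 2, and 7 of 16 libraries correlated best with their own number. Since this did not hold for every pair, numbers were not taken as pairs. The replicate block changed no call of the 10 genes, and 7 were called in PBS+TNF versus PBS+PBS.

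Signs turned only for log2 fold changes that were not called. With 1 library left out, the DEX+PBS versus PBS+PBS ranges were -0.028 to 0.30 for Tnfrsf1a, -0.022 to 0.24 for Ripk1, -0.12 to 0.39 for Ripk3, -0.48 to 0.44 for Mlkl, -0.20 to 0.0015 for Casp8, -0.087 to 0.31 for Cflar, -0.25 to 0.10 for Birc2 and -0.052 to 0.28 for Birc3. They were -0.31 to 0.10 for Tnfrsf1a and -0.34 to 0.18 for Cflar in DEX+TNF versus PBS+TNF, -0.064 to 0.35 for Tnfrsf1a and -0.086 to 0.38 for Birc2 in DEX+TNF versus DEX+PBS, and -0.51 to 0.067 for Cflar in the interaction. Without DEX+TNF 3 and 4, DEX+TNF versus PBS+TNF turned to 0.38 for Tnfrsf1a, 0.51 for Cflar and 0.022 for Birc3, and the interaction to 0.20 for Tnfrsf1a, 0.12 for Fas and 0.34 for Cflar. The causes of these moves were not tested. Calls among all genes ranged from 570 to 2166 for PBS+TNF versus PBS+PBS, from 0 to 7 for DEX+PBS versus PBS+PBS, from 0 to 274 for DEX+TNF versus PBS+TNF, from 0 to 1286 for DEX+TNF versus DEX+PBS and from 0 to 9 for the interaction. With upper-quartile factors the median of all genes moved from -0.03 to -0.15 (log2) in PBS+TNF versus PBS+PBS, where the 7 calls held.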
